A study of Homo sapiens with 6 samples.

Results

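The mitosis and G2/M genes examined here are 46 genes whose products drive or carry out the last phase of the cell cycle. They were chosen by name, and their probe sets are those whose only annotated gene is a member, which gave 89 of the 54613 probe sets on the array. All 46 genes were measured above the filter on dim signals by at least 1 probe set, out of 11895 genes tested. The cells were NCI-H292, an established line derived from a mucoepidermoid carcinoma of the lung, kept in DMEM with serum. The CT45A1 overexpression cells carried a stable CT45A1-Venus construct, Venus being a fluorescent protein, and the CT45A1 negative cells carried the Venus vector alone, so both groups had been transfected. Each group had 3 replicates on 1 array each. Whether the transfected cells were pools or clones is not in the labels. Nor is it stated that the replicates came from separate cultures, so the p-values rest on a spread between arrays that may be technical.

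Cells enter mitosis when CDK1, bound to cyclin B, becomes active, and they leave it when the anaphase-promoting complex marks cyclin B and the separase inhibitor securin for destruction. In between, the spindle forms, kinetochores attach chromosomes to microtubules, a checkpoint holds back anaphase until attachment is complete, and the cell is divided at the midzone. Transcripts of most of these genes are low in G1 and accumulate in G2, under repression by the DREAM complex and activation by MuvB, B-MYB and FOXM1. CT45A1 is a cancer/testis antigen, one of a family of X-linked genes expressed mainly in testis and in some tumours.

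The labels and the cells were checked first. The brighter of the CT45 probe sets, each annotated to 9 CT45 genes, had signals of 518, 700.1 and 445 in CT45A1 overexpression, against 23.1, 15.8 and 1.95 in CT45A1 negative. Of 8 epithelial markers, 8 lay above the array median on at least 3 arrays, with summed signals of 81574 to 82646 in overexpression and 84202 to 90968 in negative cells. One of them, the keratin KRT18, fell by 0.25 (limma adjusted p = 0.0367), and passed in 10 of 18 alternatives. That call was lost with quantile normalization (-0.14, adjusted p = 0.224), cyclic loess (-0.13, adjusted p = 0.219), no filter (0.0946) and no variance trend (0.237), and without overexpression replicates 1 and 2 or negative replicates 1 and 2 (0.118 to 0.139). No fibroblast marker of 6 lay above the array median on at least 3 arrays. Among the others, 1 of 4 leukocyte markers (CD14) and 2 of 4 endothelial markers (PECAM1 and CDH5) did. Summed signals were 161 to 192 and 120.0 to 176 for fibroblast markers, 223 to 344 and 145 to 319 for leukocyte markers, and 374 to 455 and 271 to 345 for endothelial markers, in overexpression and negative cells. The ratio of 3' to 5' actin probe sets, which grows with RNA degradation or short labelling, was 1.42, 1.49 and 1.55 in overexpression and 1.70, 1.64 and 1.91 in negative cells. That of GAPDH was 1.01, 0.97 and 1.04 in overexpression and 1.09, 1.05 and 1.18 in negative cells. Neither ratio overlapped between the groups. A fit with the actin ratio as a covariate therefore cannot tell the part of the ratio from that of the group. Array medians of the signal were 79.2 to 83.3 in overexpression and 72.6 to 75.6 in negative cells, on arrays scaled by the authors to a common trimmed mean.

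The genes share more than their function. In many of them the start of the gene carries a cell cycle genes homology region (CHR), the site bound by the LIN54 subunit of MuvB, together with CCAAT boxes, the sites of the activator NF-Y. Promoters of 300 bases, from 250 before to 50 after the start of the gene, were taken from RefSeq (GRCh38.p14) for 40 of the 46 genes, 49 promoters in all. AURKA, BIRC5, RACGAP1, TPX2, TTK and UBE2C had no entry. The CHR was searched as TTTGAA or TTCGAA and the NF-Y box as CCAAT, on both strands, with overlapping matches counted separately. A CHR sequence stood in 34 of the 49 member promoters (69.4%), against 16.4% of all 35116 promoters in the table. A CCAAT box stood in 35 of them (71.4%), against 34.6% of all promoters, and both stood in 27 (55.1%), against 6.38%. In the promoters of 47 DNA replication genes, 64 in all, a CHR sequence was found in 3 (4.69%) and a CCAAT box in 36 (56.2%). A match of these letters is a description and not evidence of binding.

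Promoters of 5 members are shown over the 200 bases before the start of the gene. CCNB2, CDC20 and PLK1 carry both elements, while AURKB and KIF2C, the members with some of the smallest p-values below, have no CHR match in their windows. For AURKB, which has more than 1 promoter in the table, the one starting farther upstream is shown. Capitals mark matches to either motif on either strand. Coordinates of the stretches are chr15:59104946-59105145 for CCNB2, chr1:43358781-43358980 for CDC20, chr16:23678689-23678888 for PLK1 and chr1:44739637-44739836 for KIF2C, all on the plus strand, and chr17:8210250-8210449 on the minus strand for AURKB.
CCNB2: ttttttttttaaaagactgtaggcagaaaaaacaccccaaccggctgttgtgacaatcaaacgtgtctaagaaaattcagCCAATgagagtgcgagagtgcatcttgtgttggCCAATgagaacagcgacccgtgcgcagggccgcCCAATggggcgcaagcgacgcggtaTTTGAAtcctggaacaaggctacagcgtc
CDC20: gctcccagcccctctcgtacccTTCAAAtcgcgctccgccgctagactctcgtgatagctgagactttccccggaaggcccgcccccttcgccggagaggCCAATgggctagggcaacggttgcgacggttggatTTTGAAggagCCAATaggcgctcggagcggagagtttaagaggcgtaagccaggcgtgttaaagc
PLK1: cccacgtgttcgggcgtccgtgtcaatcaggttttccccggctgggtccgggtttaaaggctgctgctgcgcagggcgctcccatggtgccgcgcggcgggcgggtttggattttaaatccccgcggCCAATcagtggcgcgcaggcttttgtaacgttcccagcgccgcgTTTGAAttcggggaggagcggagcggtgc
AURKB: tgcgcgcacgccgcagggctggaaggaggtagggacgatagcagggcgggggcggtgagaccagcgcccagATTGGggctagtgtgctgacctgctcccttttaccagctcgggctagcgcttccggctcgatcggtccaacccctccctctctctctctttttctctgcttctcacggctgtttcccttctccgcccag
KIF2C: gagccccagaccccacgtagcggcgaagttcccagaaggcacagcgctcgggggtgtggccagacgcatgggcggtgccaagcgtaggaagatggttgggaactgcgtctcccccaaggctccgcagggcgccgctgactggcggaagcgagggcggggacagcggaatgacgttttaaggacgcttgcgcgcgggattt

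**Figure D1:**
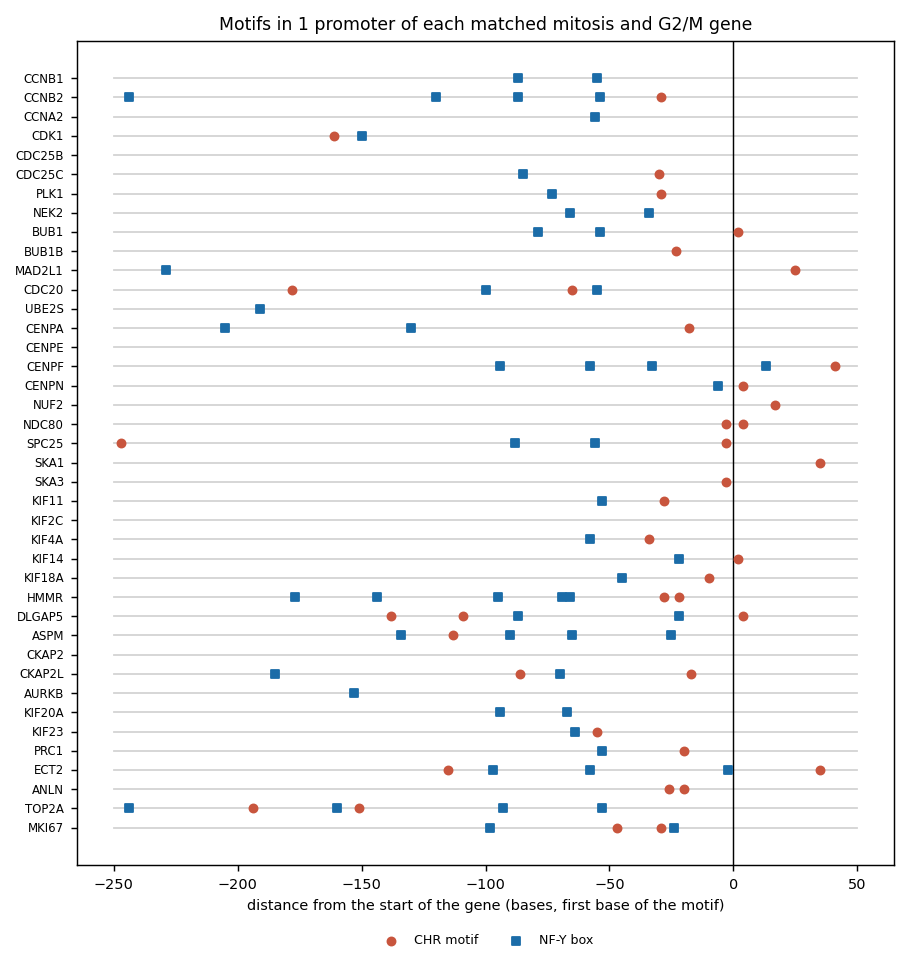
Position of each CHR motif (circles) and NF-Y box (squares) in 1 promoter of each of the 40 matched genes, the one with the lowest coordinate where several are listed. The x axis gives bases from the start of the gene and the rows are genes. Over all member promoters, 34 of 48 CHR matches lay between 60 bases before and 50 bases after the start, with a median position of -27, while CCAAT boxes had a median position of -75.5.

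At the brightest probe set of each gene, no member of the mitosis and G2/M genes passed an adjusted p under 0.05 in limma, in either direction, where 3.83% of all genes tested did (1.94% higher and 1.89% lower in overexpression). An unadjusted p under 0.05 was reached by 5 of 46 (10.9%), against 20.9% of all genes. Differences are given throughout in log2 units, with overexpression first. They were above 0 for 24 members and below 0 for 22, where 51.7% of all genes lay above 0, with a median of 0.0085, against a median of 0.0085 over all genes. They ranged from -0.26 for PLK1 to 0.30 for AURKB, and none exceeded 0.3 in size, which 20.4% of all genes did. The members were brighter, at mean log2 signals of 11.53 in overexpression and 11.54 in negative cells, against 9.66 and 9.63 over all genes. The shares given here for all genes were not matched for brightness. The 3 overexpression arrays lay wholly on 1 side of the 3 negative arrays for 7 members (15.2%), against 27.2% of all genes. It was 2 members higher (13.4% of all genes) and 5 lower (13.8% of all genes). After centring each array on its median, which shifted all genes by a median of -0.14 and split the calls into 165 higher and 1650 lower (against 231 and 225), AURKA, UBE2S and TPX2 fell (limma adjusted p = 0.0142, 0.0183 and 0.0404), while the members' median of -0.14 equalled that shift. These counts describe the list, and no test set it against other genes. In RNA from whole cultures, the share of cells in G2 or M and the amount of RNA per such cell cannot be told apart.

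The intervals bound the differences at the brightest probe set of each gene. These 95% intervals, not adjusted for the number of genes, lay within 1.5-fold in both directions for 45 of 46 members and within 2-fold for all 46. The exception at 1.5-fold was PLK1, whose interval ran from -0.59 to 0.079. The bound does not extend to the other probe sets, where intervals reached 0.90 for BUB1 and 1.24 for CDC25C. Nor does it hold in every alternative. The interval of CDC25C ended at 0.57 in the fit reported here and past 1.5-fold in several others. Its upper end was 0.78 as the mean of probe sets, 0.61 without the variance trend and 0.95 with the actin covariate. It was 0.62 to 0.67 without overexpression replicate 1 or 3 or negative replicate 1 or 3. After median centring CDK1 and CDC25B each differed by -0.38. The median half-width of the interval was 0.16 for members, against 0.25 over all genes. The mean log2 signal of the 46 genes was 11.53, 11.51 and 11.56 on the overexpression arrays and 11.57, 11.53 and 11.52 on the negative arrays. These ranges overlap, and the group means of 11.53 ± 0.027 and 11.54 ± 0.026 (SD, n = 3 each) differed by -0.0056, less than the spread between arrays.

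**Figure D2:**
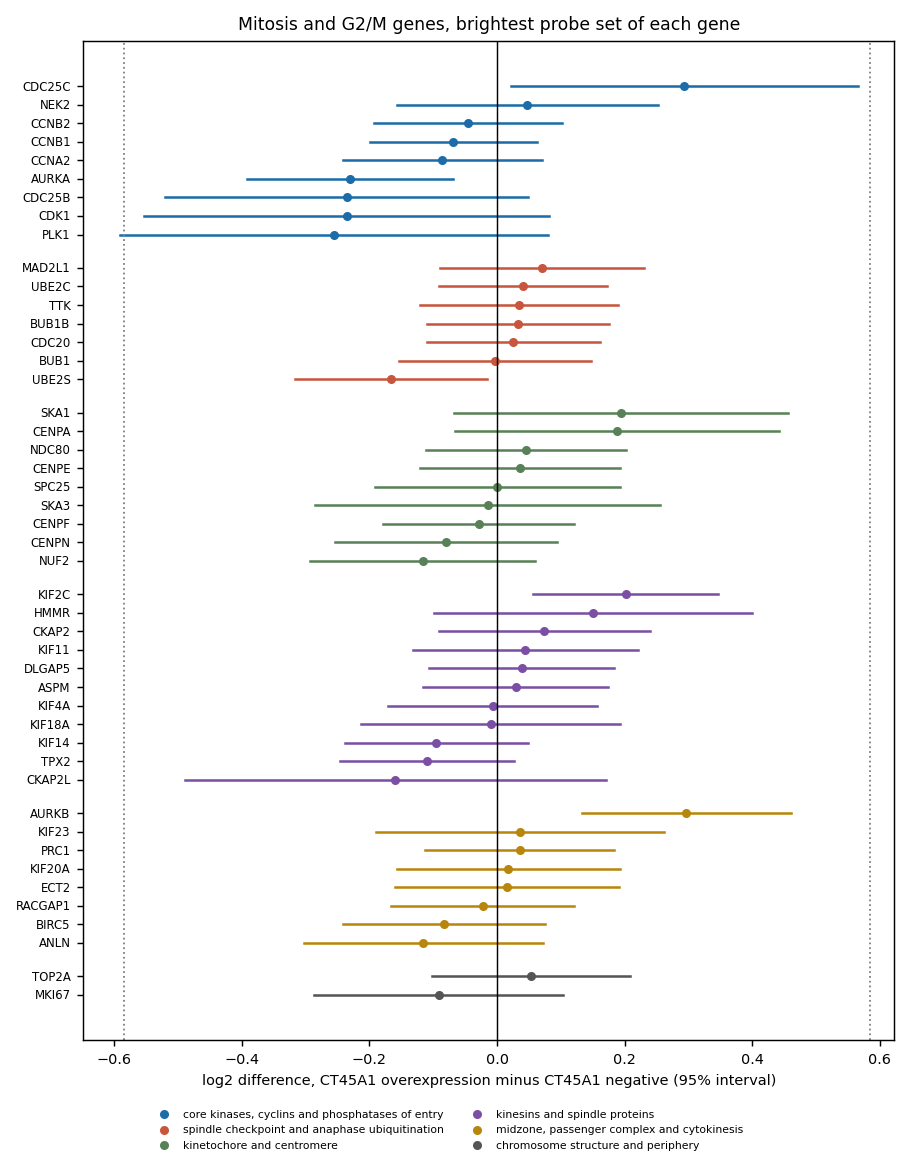
Log2 difference (point) and 95% interval (line) for the 46 genes, grouped by role and measured at each gene's brightest probe set, with 3 arrays per group. The dotted lines mark 1.5-fold. The interval of PLK1 crosses a dotted line at -0.59, and the points lie between -0.26 and 0.30.

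The kinases, cyclins and phosphatases that start mitosis leaned below 0, at 7 of 9 members, with a median of -0.086, and none passed. AURKA, the kinase of centrosomes and spindle poles, had signals of 5012, 5218 and 5700 in overexpression, against 6188, 5873 and 6624 in negative cells. The groups did not overlap, the difference was -0.23 (SE 0.073, 95% interval -0.39 to -0.069) and the adjusted p in limma was 0.118. Its other probe sets differed by -0.14, without overlap, and by 0.085, and their mean with the brightest by -0.093. With the actin ratio in the fit the difference was -0.016 (95% interval -0.24 to 0.21, limma adjusted p = 0.950). CDK1, the kinase at the centre of mitotic entry, had signals of 7831, 8665 and 11320 in overexpression and 11412, 8877 and 12378 in negative cells. The arrays of both groups spread widely and overlapped, with a difference of -0.24 (SE 0.14, limma adjusted p = 0.371). The difference was 0.096 as the mean of its probe sets and 0.32 when the actin ratio entered the fit, so its direction is not settled. PLK1, the Polo kinase that activates CDC25C and recruits maturation factors to centrosomes, had 236, 275 and 318 in overexpression, against 330.1, 350.8 and 304 in negative cells. The highest overexpression array lay above the lowest negative array, with a difference of -0.26 (SE 0.15, limma adjusted p = 0.359).

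The cyclins gave small differences at their brightest probe sets. CCNB1, cyclin B1, had signals of 7325, 6992 and 7401 in overexpression, against 7842, 7621 and 7318 in negative cells, a difference of -0.069 (SE 0.059). Its other probe set had 2641, 2601 and 2675.5 in overexpression, against 2879, 2764 and 2993 in negative cells, without overlap. That probe set differed by -0.12 (SE 0.067, limma adjusted p = 0.317) and passed only after median centring. CCNB2, the other B-type cyclin of somatic cells, differed by -0.046 (0.45, SE 0.31, without overlap at its dim second probe set). CCNA2, the cyclin of S phase and G2, differed by -0.086. The phosphatases that remove inhibitory phosphates from CDK1 lay on opposite sides of 0. CDC25C had 667, 884 and 770.4 in overexpression, against 669, 574 and 642 in negative cells, a difference of 0.29 (SE 0.12, 95% interval 0.022 to 0.57, limma adjusted p = 0.209). The lowest overexpression array lay just below the highest negative array. Its other probe set had 247, 160.4 and 209 in overexpression, against 134, 95.3 and 157 in negative cells, a difference of 0.68 (SE 0.25, limma adjusted p = 0.155) without overlap. The mean of both differed by 0.49 (adjusted p = 0.0882). CDC25B, which acts earlier at centrosomes, differed by -0.24 (SE 0.13), and NEK2, the kinase that separates centrosomes, by 0.048.

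The mean log2 signal of these 9 entry genes was 11.29, 11.41 and 11.53 on overexpression replicates 1, 2 and 3, against 11.53, 11.45 and 11.53 on the negative arrays. Overexpression replicate 3 was the highest of the 6 arrays, just above the negative range, and overexpression replicates 1 and 2 were the lowest. Without overexpression replicate 1, CDK1 differed by -0.12 and PLK1 by -0.15, against -0.24 and -0.26 with all arrays.

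The spindle checkpoint genes and the genes of anaphase ubiquitination had a median of 0.033, with 5 of 7 above 0 and none past the threshold. UBE2S, which extends ubiquitin chains on targets of the anaphase-promoting complex, was the exception in size. It had signals of 5798, 5273 and 5767 in overexpression, against 6124, 6082 and 6680 in negative cells. The groups did not overlap, with a difference of -0.17 (SE 0.068, 95% interval -0.32 to -0.015, limma adjusted p = 0.202). With the actin ratio in the fit it differed by -0.052. UBE2C, which starts those chains, had 8360, 7844 and 7679 in overexpression, against 7795, 7543 and 7863 in negative cells, and differed by 0.041. CDC20, the coactivator that the checkpoint restrains, had 4412, 4224 and 4330 in overexpression and 4286, 4118 and 4335 in negative cells, a difference of 0.026 (95% interval -0.11 to 0.16). The checkpoint kinases TTK and BUB1 differed by 0.034 and -0.0031, BUB1B (BubR1) by 0.033 and MAD2L1, the Mad2 protein that binds CDC20, by 0.071. At the brightest probe sets the groups overlapped for each of these 6 genes. Dimmer probe sets of BUB1 (0.62) and MAD2L1 (0.16) did not overlap. In the fit over probe sets the BUB1 probe set passed and the MAD2L1 probe set did not (limma adjusted p = 0.0340 and 0.266). The remaining MAD2L1 probe set differed by 0.27 with overlap (limma adjusted p = 0.290).

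Kinetochore and centromere genes lay on both sides of 0, at 5 of 9 above it, with a median of 0.00058 and none past the threshold. SKA1, a subunit of the complex that couples kinetochores to microtubule ends, had the smallest p in this group. Its signals were 885, 894 and 765 in overexpression, against 780.5, 813 and 638 in negative cells. The groups overlapped, with a difference of 0.19 (SE 0.12, limma adjusted p = 0.372), while its partner SKA3 differed by -0.015. CENPA, the histone H3 variant that marks centromeres, differed by 0.19 (SE 0.11) at its only probe set with 1 annotated gene. A brighter probe set annotated to both CENPA and SLC35F6, which was not assigned, differed by -0.16 (SE 0.069).

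The outer kinetochore complex that holds microtubules, NDC80, NUF2 and SPC25, gave differences of 0.045, -0.12 and 0.00058. For NUF2 the 3 overexpression arrays, at 1585, 1469 and 1562, all lay below the negative arrays, at 1773, 1591 and 1642, but the difference was small beside its error (SE 0.080, limma adjusted p = 0.431). CENPE, the kinesin of kinetochores, differed by 0.036, CENPF, a large outer kinetochore protein, by -0.029 and CENPN, which reads CENPA nucleosomes, by -0.081.

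Among kinesins and spindle proteins 6 of 11 lay above 0, with a median of 0.029 and none past the threshold. KIF2C, the kinesin MCAK that takes microtubules apart and corrects wrong attachments, had signals of 3459, 3657 and 3631 in overexpression, against 3016, 3106 and 3221 in negative cells. The groups did not overlap, with a difference of 0.20 (SE 0.065, 95% interval 0.057 to 0.35, limma adjusted p = 0.125). After median centring it differed by 0.057. TPX2, which activates AURKA on the spindle, had 4316, 4275 and 4476 in overexpression and 4724, 4820 and 4556 in negative cells, also without overlap, and differed by -0.11 (SE 0.061, limma adjusted p = 0.332). KIF14, a kinesin of the midbody, differed by -0.095 without overlap (SE 0.065, limma adjusted p = 0.429).

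KIF11, the motor that separates spindle poles, differed by 0.044, and the chromokinesin KIF4A and KIF18A, a kinesin that shortens microtubules, by -0.0067 and -0.010. The spindle proteins HMMR, DLGAP5, ASPM and CKAP2 differed by 0.15, 0.039, 0.029 and 0.074, and CKAP2L by -0.16 (SE 0.15). CKAP2L varied widely between arrays, at 1116, 833 and 1143 in overexpression and 1305, 943 and 1203 in negative cells. At the brightest probe sets the groups overlapped for each of these 8 genes. Dimmer probe sets of HMMR (0.084) and ASPM (-0.42) did not overlap, and neither passed (limma adjusted p = 0.523 and 0.129).

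AURKB, the catalytic kinase of the chromosomal passenger complex, came nearest to the threshold of all members. It had signals of 1715, 1674 and 1724 in overexpression, against 1427, 1384 and 1352 in negative cells. Every overexpression array lay above every negative array, and the spread within groups was small, with mean log2 signals of 10.74 ± 0.023 and 10.44 ± 0.039 (SD, n = 3 each). The difference was 0.30 (SE 0.074, 95% interval 0.13 to 0.46) and the adjusted p in limma was 0.0552. It passed in 2 of 19 alternatives, with a stricter filter on dim probe sets (adjusted p = 0.0404) and with the variance moderated over genes in place of probe sets (adjusted p = 0.0457, an alternative added after the data were seen). Over the 19 its adjusted p reached 0.698, as the mean of its probe sets (difference 0.087), and after leaving out single arrays it ran from 0.0812 to 0.168. After median centring AURKB differed by 0.15 (95% interval -0.037 to 0.34, limma adjusted p = 0.252). With the actin covariate it differed by 0.26 (95% interval -0.031 to 0.54, limma adjusted p = 0.309). The dim second probe set of AURKB differed by -0.12 (SE 0.24).

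The other passenger and division genes gave small differences at their brightest probe sets. BIRC5 (survivin), the passenger subunit that brings AURKB to centromeres, had 3719, 3463 and 3269 in overexpression, against 3685, 3817 and 3555 in negative cells, and differed by -0.083. KIF20A, which carries the passenger complex to the midzone, differed by 0.017 and PRC1, which bundles midzone microtubules, by 0.035. KIF23 and RACGAP1, the subunits of centralspindlin, differed by 0.036 and -0.022, and ECT2, the exchange factor for RhoA that centralspindlin recruits, by 0.016. The other ECT2 probe set had 685, 796 and 706 in overexpression, against 655, 584 and 427 in negative cells, a difference of 0.41 (SE 0.15, limma adjusted p = 0.163) without overlap. ANLN, the scaffold of the contractile ring, had 12948, 11511 and 10292 in overexpression and 13075, 12790 and 11660 in negative cells, a difference of -0.12 (SE 0.084). At the brightest probe sets the groups overlapped for all 7.

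At their brightest probe sets, the 2 genes of chromosome structure, both widely used as proliferation markers, did not separate the groups. TOP2A, the topoisomerase that untangles sister chromatids, had signals of 9470, 9303 and 9431 in overexpression, against 8417, 8840 and 10003 in negative cells, and differed by 0.053 (SE 0.070). Its other kept probe set had 7510, 7526 and 7769 in overexpression, against 7397, 7122 and 7112 in negative cells, without overlap. That probe set differed by 0.076 (limma adjusted p = 0.470). MKI67 (Ki-67), which coats mitotic chromosomes, had 3623, 3360 and 3942 in overexpression, against 3569, 3783 and 4298 in negative cells, and differed by -0.091 (SE 0.088, limma adjusted p = 0.588). Other MKI67 probe sets, at 0.16 and 0.35, lay higher in overexpression without overlap but did not pass (limma adjusted p = 0.229 and 0.0914).

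**Figure D3:**
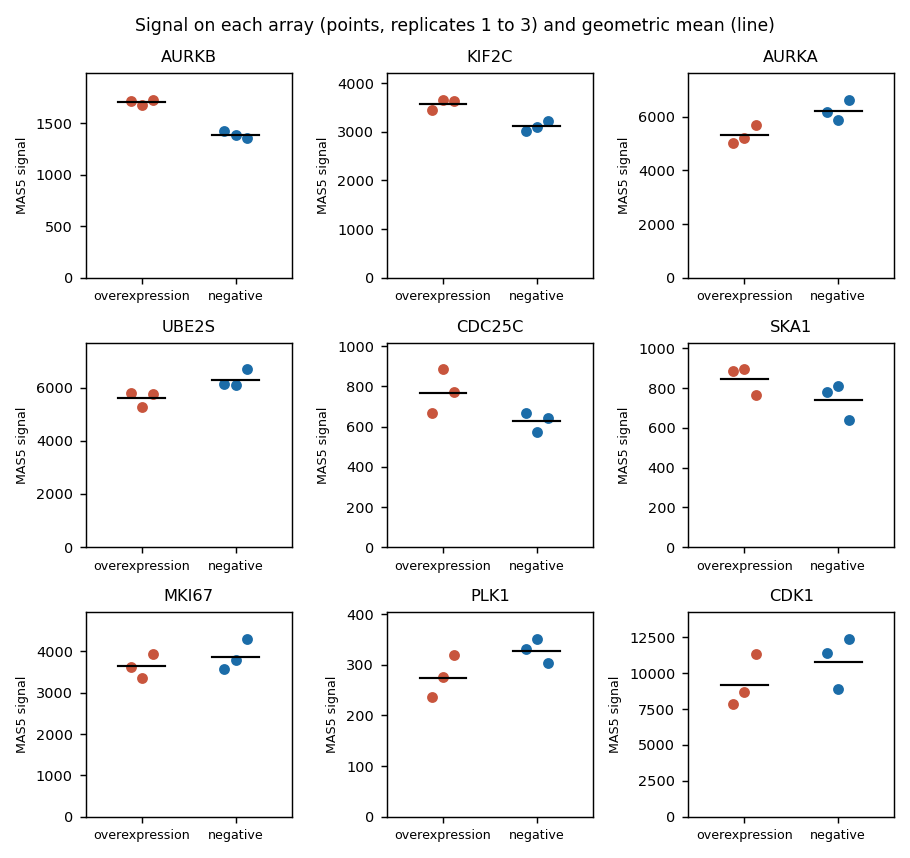
MAS5 signal of 9 members on each array (points, replicates 1 to 3 from left to right) with the geometric mean of the group (line), CT45A1 overexpression on the left and CT45A1 negative on the right, on linear axes from 0. The brightest probe set of each gene is shown. AURKB and KIF2C lie higher and AURKA and UBE2S lower in overexpression without overlap, while the other 5 genes overlap.

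Several members have more than 1 probe set, and these did not always move together. Of the 89 probe sets, 80 were bright enough to test, and 23 genes had more than 1 of them. For 12 of the 23 (ASPM, AURKA, AURKB, BIRC5, BUB1, CCNA2, CCNB2, CDK1, CENPN, CKAP2, KIF14 and MKI67), the differences of the probe sets lay on both sides of 0. In the fit over all 27618 probe sets kept, 2 of the 80 (2.5%) passed an adjusted p under 0.05 and both were higher in overexpression, against 3.23% of all probe sets in either direction and 1.89% upward. An unadjusted p under 0.05 was reached by 16 of 80 (20%), against 20.7% of all probe sets. The 34 probe sets that were not the brightest of their gene had a median difference of 0.099, with 23 above 0, while the brightest probe sets of the same 23 genes had a median of -0.0031, with 11 above 0. The same count was not made for dimmer probe sets of other genes, so it cannot be read as particular to these members.

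The first of those that passed was a BUB1 probe set with signals of 559, 533 and 498 in overexpression, against 342, 395 and 305 in negative cells. It rose by 0.62 (SE 0.13, limma adjusted p = 0.0340). The brighter BUB1 probe set had 2230, 2215 and 2323 in overexpression, against 2232, 2301 and 2249 in negative cells, so the gene's probe sets disagree. The second was the dimmer KIF2C probe set, with 1429, 1450.2 and 1637 in overexpression, against 1196, 1154 and 1118 in negative cells. It rose by 0.38 (SE 0.086, limma adjusted p = 0.0432), in the same direction as the brighter one. The mean of both KIF2C probe sets rose by 0.29 with an adjusted p of 0.0447 over genes. Neither call held in every setting. When the actin ratio entered the fit, the BUB1 probe set differed by 0.27 (SE 0.21, limma adjusted p = 0.540) and the KIF2C probe set by 0.41 (SE 0.15, limma adjusted p = 0.199). The BUB1 call was lost on leaving out any array other than negative replicate 2 (adjusted p = 0.0541 to 0.130), and the KIF2C call on leaving out any array (adjusted p = 0.0651 to 0.128). Both were also lost with cyclic loess (adjusted p = 0.0556 and 0.0503), without the filter (0.0568 and 0.0657) and without the variance trend (0.101 and 0.129). The BUB1 call was lost with quantile normalization (0.0556) and the KIF2C call with median centring (0.159).

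Other genes showed the same spread between probe sets without passing. MKI67 differed by -0.091 at its brightest probe set and by 0.038, 0.16 and 0.35 at the others. The last of these had 981, 959 and 907 in overexpression, against 763, 810 and 664 in negative cells (limma adjusted p = 0.0914), and differed by 0.071 with the actin ratio as a covariate. NEK2 differed by 0.048 and 0.38 (limma adjusted p = 0.812 and 0.0806), and the second probe set differed by 0.11 with that covariate. CDK1 differed by -0.24 at its brightest probe set and by 0.11, 0.19 and 0.32 at the others. ASPM ran the other way, at 0.029 for the brightest and -0.21 and -0.42 for the others. Where each probe set lies along its transcript was not used here. The actin ratio did not overlap between the groups, so the covariate cannot tell its part in these values from that of the group.

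**Figure D4:**
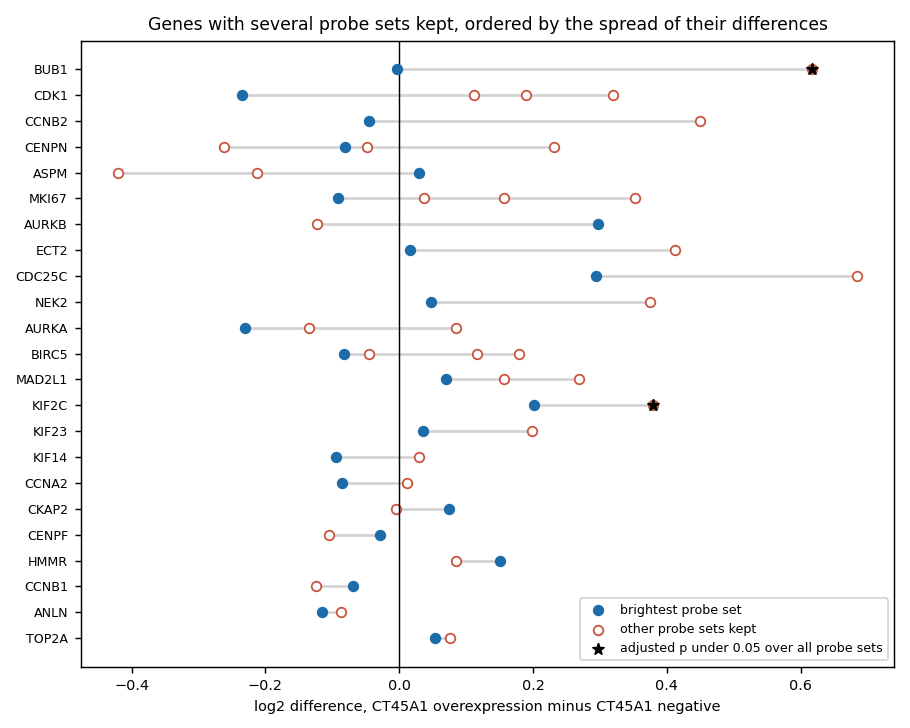
Log2 difference of every kept probe set of the 23 genes with more than 1, with the brightest probe set filled and the others open. The stars mark the BUB1 and KIF2C probe sets that passed, at 0.62 and 0.38. The genes are ordered by the spread of their differences, which was widest for BUB1.

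The members with and without a CHR match in their promoters gave similar medians. The 31 genes with a match had a median difference of 0.00058 and the 9 without 1 had a median of 0.036, and no gene of either set passed. An unadjusted p under 0.05 was reached by 1 of the 31, CDC25C, and by 3 of the 9, AURKB, KIF2C and UBE2S, against 20.9% of all genes. That split was made after the values were known and was not tested.

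Of 151 genes tested from 7 further lists of mitotic genes, 1 rose and 3 fell, where 1.94% and 1.89% of all genes did, with a median of -0.026. An unadjusted p under 0.05 was reached by 25 (16.6%), against 20.9% of all genes, and the groups did not overlap for 26.5%, against 27.2%. Among 20 transcription regulators of the cell cycle, which hold FOXM1, MYBL2 and the MuvB subunits, TFDP1 fell by 0.27 (SE 0.064, limma adjusted p = 0.0484) and none rose. TFDP1, the partner of E2F factors, had 5282, 5349 and 5446 in overexpression, against 6718, 6640 and 6026 in negative cells, and its other probe sets differed by 0.23 and -0.27. TFDP1 passed in 7 of 19 alternatives. Its call was lost on leaving out any array other than negative replicate 3 (adjusted p = 0.0743 to 0.168), and as the mean of probe sets it differed by -0.10 (adjusted p = 0.491). It was also lost with quantile normalization (0.0934), cyclic loess (0.110), no filter (0.0786), no variance trend (0.227), the replicate block (0.0514) and the actin covariate (0.0755). Of 19 kinases, phosphatases and inhibitors of entry, CKS2 and ARPP19 fell by 0.40 and 0.35 (limma adjusted p = 0.0252 and 0.0478) and none rose.

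CKS2, a small subunit of CDK complexes, had 6884, 8451 and 8104 in overexpression, against 10331, 10421 and 9981 in negative cells. All overexpression arrays lay below all negative arrays. It passed in 12 of 18 alternatives, and its call was lost without overexpression replicate 1 and without negative replicates 1 and 2 (adjusted p = 0.0731, 0.0966 and 0.0754). It was also lost with cyclic loess (0.0545), the actin covariate (0.204) and no variance trend (0.179). ARPP19, which inhibits the phosphatase PP2A when phosphorylated by Greatwall, had 7310.4, 7508 and 8495 in overexpression, against 10606, 10174 and 8882 in negative cells. Its other probe sets differed by -0.068 and -0.096, and it passed in 7 of 18 alternatives. Its call was lost without overexpression replicates 1 and 2 and without negative replicates 1 and 2 (adjusted p = 0.128 to 0.178), and as the mean of probe sets it differed by -0.17 (adjusted p = 0.229). It was also lost with quantile normalization (0.0909), cyclic loess (0.112), no filter (0.0770), no variance trend (0.232), the replicate block (0.0533) and the actin covariate (0.121).

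Of 33 other kinetochore and centromere genes, HJURP, the chaperone that loads CENPA, rose by 0.31 (SE 0.072, limma adjusted p = 0.0425) and none fell. Its signals were 2043, 1905 and 1944 in overexpression, against 1606, 1568 and 1566 in negative cells, without overlap. It passed in 8 of 19 alternatives, and the call was lost on leaving out any array (adjusted p = 0.0599 to 0.145). With median centring it differed by 0.17 (adjusted p = 0.182), and the call was also lost with the actin covariate (0.273), no filter (0.0557), no variance trend (0.163) and without the _x_at and _s_at classes (0.0524). No gene passed in limma among 17 of the anaphase-promoting complex, 16 other passenger and cytokinesis genes, 26 other spindle motors and microtubule genes or 20 of condensin and cohesin, where 5 (29.4%), 2 (12.5%), 6 (23.1%) and 2 (10%) had an unadjusted p under 0.05, against 20.9% of all genes. The smallest p in these lists belonged to ANAPC15 (-0.46, limma adjusted p = 0.0520), SEPTIN9 (-0.24, adjusted p = 0.115, with other probe sets between -0.76 and 0.98), DYNC1H1 (0.29, adjusted p = 0.0771) and NCAPD2 (0.29, adjusted p = 0.152).

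The neighbouring phases of the cycle held a few calls. Of 53 DNA replication genes, GINS2 and DTL fell and none rose, where 1.89% of all genes fell and 1.94% rose. The median of the list was -0.062, with 36 below 0, where 51.7% of all genes lay above 0. An unadjusted p under 0.05 was reached by 10 (18.9%), against 20.9% of all genes. GINS2, a subunit of the replicative helicase, fell by 0.45 (SE 0.075, limma adjusted p = 0.0130; other probe sets -0.18 and -0.75), with 3023, 2727 and 2727 in overexpression, against 3802, 4104 and 3657 in negative cells. DTL, the adaptor that targets CDT1 for destruction, fell by 0.46 (SE 0.093, limma adjusted p = 0.0282), with -0.20 at its other probe set. The GINS2 call was lost without overexpression replicate 2 and without negative replicate 1 (adjusted p = 0.0723 and 0.0549), as the mean of probe sets (0.161) and without the variance trend (0.123). Without the _x_at and _s_at classes it was measured by another probe set, at -0.18 (adjusted p = 0.853). The DTL call was lost without overexpression replicates 1 and 2 and without negative replicate 2 (adjusted p = 0.0839, 0.126 and 0.0754). With the actin covariate DTL differed by -0.25 (adjusted p = 0.397), and without the variance trend its adjusted p was 0.163.

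Of 13 genes of G1 cyclins, CDKs and inhibitors, 4 (30.8%) had an unadjusted p under 0.05, against 20.9% of all genes. CCND2 (cyclin D2) fell by 0.41 (SE 0.069, limma adjusted p = 0.0133) and none rose, where 1.89% of all genes fell and 1.94% rose. It had 11654, 12052 and 11919 in overexpression, against 16005, 17052 and 14298 in negative cells, and its other probe sets differed by -0.53, -1.30 and -0.089. The call was lost without overexpression replicates 1 and 2 and without negative replicate 1 (adjusted p = 0.0630, 0.0597 and 0.0682), and without the variance trend (0.149). Whether the mitosis and G2/M genes differ from these lists was not tested.

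**Figure D5:**
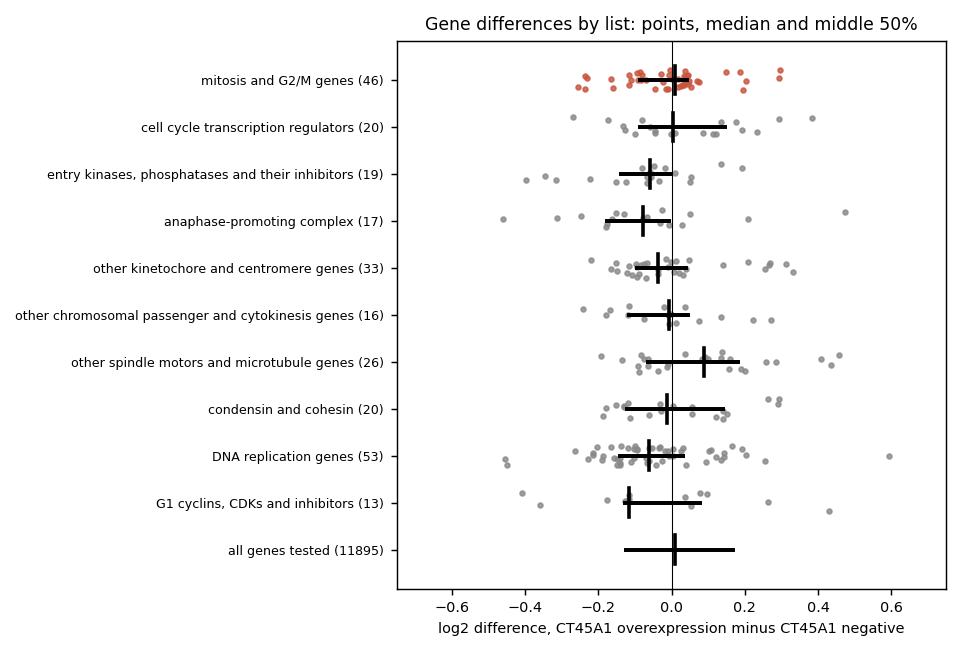
Log2 difference of each gene tested (points) with the median (vertical tick) and the middle 50% (thick line) for the 46 mitosis and G2/M genes, 9 related lists and all 11895 genes, whose points are not drawn. The middle 50% of the mitosis and G2/M genes runs from -0.085 to 0.043, against -0.12 to 0.17 for all genes.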

How the data were processed

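Biotin-labelled cRNA was made from total RNA with a 3' in vitro transcription kit and hybridised, 1 array a sample, per the labels. What the authors deposited is 1 linear MAS5 intensity for each probe set; MAS5 and affy are named in the submitters' processing notes, and no version is given in the sources used here. Every array has the same trimmed mean of 500.1 (2% trimmed). Control probe sets (62) were left out. Probe sets were named from the platform's annotation, 1 symbol each, updated through Entrez identifiers in RefSeq. Log2 intensities without offset were kept when above the array median on at least 3 of 6 arrays (27618 probe sets) and fitted with limma (lmFit, eBayes with trend, two-sided). Each gene was represented by its brightest kept probe set, and p-values were adjusted by Benjamini-Hochberg over 11895 genes, or over probe sets where stated. Limma's adjusted p under 0.05 was the threshold. The fit was tested on simulated data.

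The rule for naming genes gave array values for members past the threshold or, in each role, for the member with the smallest p, and named members whose probe sets differ in sign or call. From related lists, up to 4 genes past the threshold or the 1 with the smallest p were named. Other members were added after their values were seen. The members and lists were chosen with earlier results of these data known. Alternatives are given in the closing section. The number of arrays limits precision. The software was limma 3.58.1 in R 4.3.3, with pandas 2.3.3 and matplotlib 3.10.9 in Python 3.11.15.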

Additional observations from a re-analysis of the deposited data

How the results depend on the processing

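Over 19 alternatives, the count of mitosis and G2/M genes past the threshold stayed at 0 in both directions in 15. It was 1 higher with a filter at the 75th percentile (AURKB, 45 members tested), with the mean of probe sets (KIF2C) and with moderation over genes only (AURKB). In those settings 189 of 7783, 203 of 11895 and 225 of 11895 genes tested were higher. It was 3 lower (AURKA, UBE2S and TPX2) after centring each array on its median, where 1650 of 11895 genes were lower. Leaving out each array gave 0 higher and 0 lower every time, with a median difference of -0.0087 to 0.013. Median centring shifted all genes by a median of -0.14 and moved the members' median to -0.14. Their median was -0.030 with the actin ratio as a covariate. In the other alternatives the members' median moved by less than the spread between arrays (0.027). Among single members, 6 of 861 values under an alternative passed the threshold, and the sign differed from the reported one in 84 of the 861. The number of genes past the threshold over all 11895 was 456, and was 11 without the variance trend and 1815 after median centring (165 higher and 1650 lower, against 231 and 225). It was 306 of 19775 genes without a filter and 280 of 10190 without the _x_at and _s_at classes. On leaving out 1 array it was 91 to 575, with 11696 to 11738 genes tested. Replicate numbers did not pair the arrays, with correlations of same-numbered deviations of -0.011, -0.0068 and 0.10. With the replicate block 0 members passed in either direction, their median difference was 0.0085 and 536 genes passed in all. Arrays with other numbers than their own gave correlations of -0.10 to 0.11. The 95% interval of PLK1 reached past 1.5-fold, as did that of CDC25C in several alternatives. With 3 arrays per group, what single genes can show is limited.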
